A study of Mus musculus with 30 samples.

Results

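The 9 genes described here, Otx2, Fgf5, Pou3f1, Lef1, Sox3, Sox4, Foxd3, Fgf15 and Cd24a, are genes linked to the primed epiblast. They were chosen by name, with earlier results of these data known, so counts of members set beside shares of all genes are descriptions. Every probe set of the array annotated to exactly 1 of the 9 symbols was taken, which gave 22 probe sets out of 45101. They were followed in total RNA and in 4 pools of a polysome gradient from 2 states of the mouse R-1 embryonic stem cell line. ESC were undifferentiated cells kept with LIF, the cytokine that holds mouse stem cells in self-renewal, and EB were embryoid bodies, aggregates of differentiating cells, on day 5 of growth without LIF. The labels name no transgene or mutation in either state, and all cultures came from 1 line. Cells of both states received cycloheximide, which stops ribosomes on the mRNA, at 150 ug/ml for 15 min before harvest, so no group was free of it. The lysate was spun through a sucrose gradient and the fractions were combined into pools 1 to 4, and unfractionated lysate gave total RNA. With 3 cultures per state, stated to be biological replicates, and 5 arrays per culture, there were 30 arrays in 10 groups.

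Mouse embryonic stem cells kept with LIF resemble the naive epiblast of the early embryo, before implantation. On withdrawal of LIF they go through a primed state like that of the epiblast after implantation, before they commit to germ layers. Otx2 and Pou3f1 are homeodomain and POU transcription factors that are switched on early in this transition, and Otx2 redirects Oct4 to the enhancers of primed cells. Fgf5 encodes a secreted growth factor and is the classical marker of the primed epiblast. Lef1 encodes a nuclear partner of beta-catenin in Wnt signalling, Foxd3 a forkhead factor that epiblast cells need, and Sox3 and Sox4 are SOX-family factors. Fgf15 encodes another secreted FGF, and Cd24a a small, heavily glycosylated protein of the cell surface. In a polysome gradient mRNAs separate by the number of ribosomes they carry, so that the spread of an mRNA over the pools reflects its load of ribosomes. Whether pool 1 came from the top or the bottom of the gradient is not stated in the labels, and no ribosome load is read here from a pool's number.

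Each value is a level, the log2 of the array signal plus 32, so that a signal of 0 has a level of 5. Levels on the deposited scale appear to be relative to the spike-in RNAs, which lay at a mean log2 value of 9.43 to 9.78 on every array. Levels relative to all genes were quantile normalized, so that every array of a comparison had the same distribution. A gene was called higher or lower where the adjusted p of limma, with Benjamini-Hochberg adjustment over the 13250 genes tested, was under 0.05. Mean linear signal per array ranged from 74.8 to 586, with 154 to 161 in ESC total RNA and 308 to 385 in EB total RNA. Correlations between replicate arrays of a group lay between 0.914 and 0.991, and the lowest belonged to EB pool 2, whose replicate 3 had the highest hybridisation controls of all arrays, 13.9. In pool 1 of ESC, replicate 1 had a mean signal of 231 against a lowest value of 74.8 in that group. RNA quality moved with the state in every fraction: the log2 signal of the Actb 3' control over its 5' control was 2.77 to 3.31 in ESC and 2.06 to 2.50 in EB total RNA, and for Gapdh in pool 3 it was 0.98 to 1.29 in ESC and -0.07 to 0.05 in EB. Its part in the results was not tested.

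All 9 genes had at least 1 probe set past the filter on low values, 19 of the 22 probe sets in all. A gene was represented by its probe set with the highest mean. The 3 probe sets that did not pass were 1 of 2 for Sox3 and 2 of 8 for Sox4. Otx2, Foxd3 and Fgf15 each had 1 probe set, Fgf5, Pou3f1 and Lef1 had 2 each, and Cd24a had 3. On pool arrays the deposited values had a floor, and among the 9 representative probe sets only that of Sox3 reached it, on 4 of 24 pool arrays.

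Otx2 and Lef1 were the only members called higher in EB in total RNA and in all 4 pools relative to all genes, although the pool 1 call of Lef1 held in only 7 of the 18 fits made of it. The promoters of these genes and of Fgf5 are shown to give their sequence context. RefSeq's promoter table on GRCm38.p6 held 5 of the 9 members, with 11 start sites. The 250 bases before the most upstream start of each gene follow, written 5' to 3' on the gene's strand, with matches to the motifs searched in capitals.
Otx2, chr14:48667645-48667894, minus strand: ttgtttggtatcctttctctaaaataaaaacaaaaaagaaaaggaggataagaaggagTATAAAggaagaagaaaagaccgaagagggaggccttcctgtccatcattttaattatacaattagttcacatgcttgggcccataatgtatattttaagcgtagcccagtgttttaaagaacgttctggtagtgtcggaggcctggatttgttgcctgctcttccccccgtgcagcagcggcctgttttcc
Lef1, chr3:131110047-131110296, plus strand: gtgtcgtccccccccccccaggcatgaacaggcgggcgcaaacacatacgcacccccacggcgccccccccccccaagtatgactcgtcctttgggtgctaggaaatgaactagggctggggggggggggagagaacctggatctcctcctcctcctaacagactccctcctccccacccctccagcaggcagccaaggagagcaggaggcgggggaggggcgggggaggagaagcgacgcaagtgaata
Fgf5, chr5:98253934-98254183, plus strand: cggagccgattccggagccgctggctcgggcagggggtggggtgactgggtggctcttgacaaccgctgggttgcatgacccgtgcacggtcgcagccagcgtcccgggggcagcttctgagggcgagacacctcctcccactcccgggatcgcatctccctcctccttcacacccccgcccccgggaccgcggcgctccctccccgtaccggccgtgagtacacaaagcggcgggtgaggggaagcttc
The motifs were TAATCC, the core that OTX proteins bind, CTTTGA, a core of TCF/LEF sites, the octamer ATGCAAAT of POU factors, and TATAAA, the TATA box, each on both strands. The capitals in the Otx2 promoter mark TATAAA, 192 bases before the start, far from the usual place of a TATA box. The stretches shown for Lef1 and Fgf5 held none of the 4 motifs. Of 32851 promoters of the same length, 6.25% held TAATCC, 13.8% CTTTGA, 1.6% ATGCAAAT and 12.4% TATAAA. Beyond the stretches shown, the third of 4 Otx2 starts had GGATTA, the reverse complement of TAATCC, 211 bases before it. The fourth Lef1 start had TCAAAG, the reverse complement of CTTTGA, at 180 and at 120 bases and TTTATA, the reverse complement of TATAAA, at 231 bases. The Otx2 stretch had a GC content of 42.0%, that of Lef1 66.4% and that of Fgf5 70.8%, against a median of 52.4% over all promoters. A match is a description of the letters only, and the arrays measure no binding.

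Total RNA was compared to ask how the abundance of these transcripts differed between the states. Otx2 and Lef1 stood far higher in EB, and 7 of the 9 genes were called higher on the deposited scale. That count says little about the 9 genes, since 78.9% of all genes tested were called higher there and the median gene was 0.96 higher. The median of the 9 was 0.82. In bulk RNA, fewer cells that express a gene and less of its RNA per cell cannot be told apart, which holds for every comparison here.

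For Otx2 the 3 ESC cultures had levels of 8.37, 8.63 and 8.29 on the deposited scale, and the 3 EB cultures 11.59, 11.36 and 11.51. All EB cultures lay above all ESC cultures, with little spread within a state. The difference was 3.05 ± 0.16 (log2, SE, n = 3 per state, limma adjusted p = 8.21e-06). For Lef1 the ESC levels were 6.90, 6.07 and 6.74 and the EB levels 9.08, 9.10 and 9.25. The EB cultures agreed closely while the ESC cultures varied, and the groups did not overlap. Lef1 rose by 2.57 ± 0.21 (limma adjusted p = 1.68e-05). For Cd24a the ESC levels were 8.38, 8.55 and 8.40 and the EB levels 9.86, 9.90 and 10.05. The groups lay well apart, and the rise was 1.50 ± 0.15 (limma adjusted p = 2.22e-05).

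The rises of Fgf15, Sox3, Foxd3 and Sox4 were smaller, at 0.93 ± 0.18, 0.82 ± 0.18, 0.81 ± 0.18 and 0.64 ± 0.14, and each was below that of the median gene. Their EB cultures lay above their ESC cultures without overlap, and 77.9% of all genes had no overlap, in either direction. Fgf5 and Pou3f1 were not called. Fgf5 had levels of 7.13, 6.81 and 6.94 in ESC and 7.12, 7.09 and 7.28 in EB, which overlapped, with a difference of 0.21 ± 0.15 (limma adjusted p = 0.23). Pou3f1 had 7.48, 7.22 and 6.97 in ESC and 7.38, 7.69 and 6.87 in EB, groups that covered the same range, with a difference of 0.09 ± 0.23 (limma adjusted p = 0.718).

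Relative to all genes the 9 split: Otx2 and Lef1 were called higher in EB total RNA, Sox4, Fgf5 and Pou3f1 lower, and the other 4 were not called. Of all genes 6.55% were called higher and 6.09% lower. The median of the 9 genes was -0.08 and that of all genes -0.0042.

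**Figure D1:**
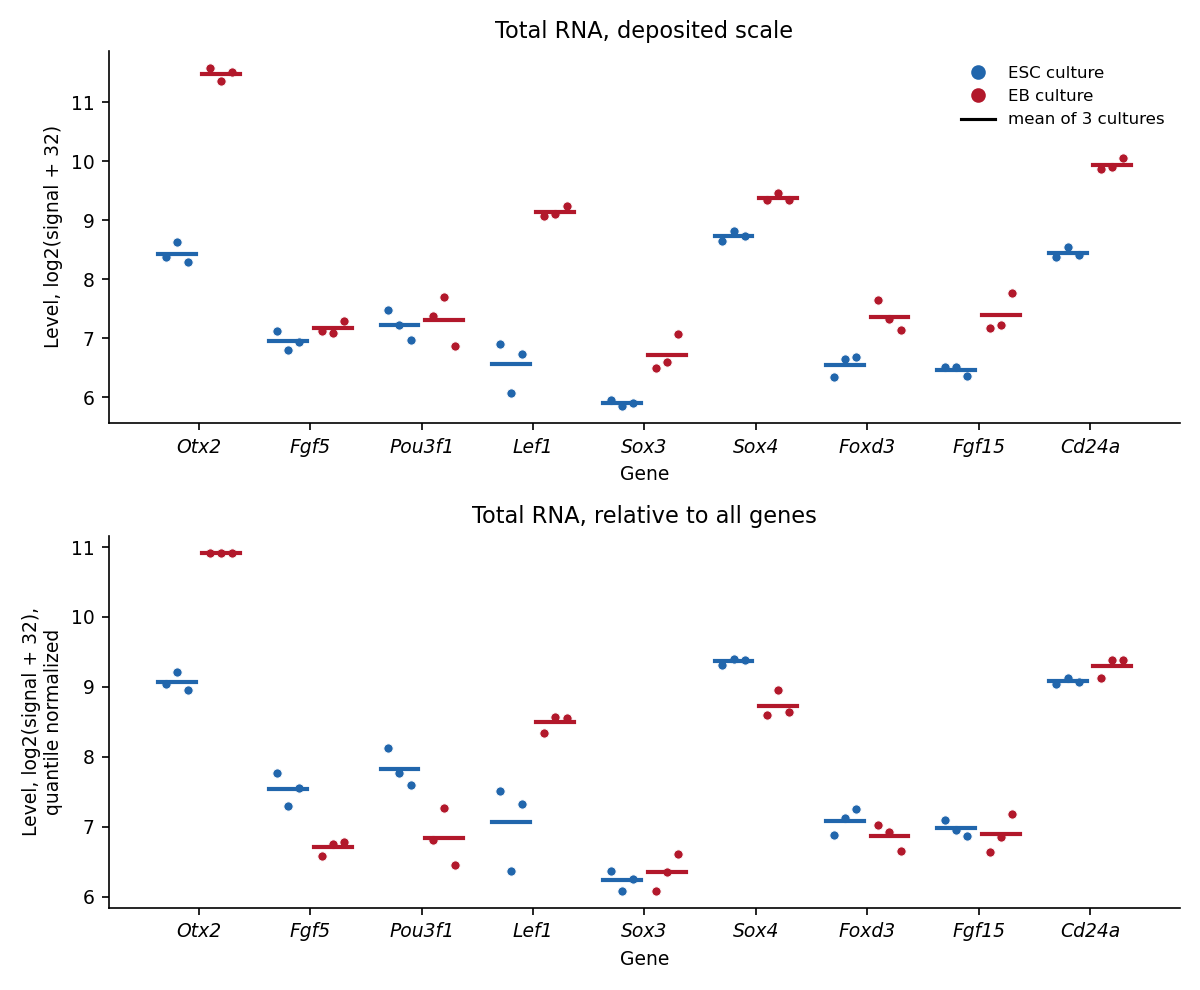
Levels of the 9 genes in total RNA, as log2(signal + 32), on the deposited scale (top) and after quantile normalization (bottom). Each point is 1 culture and each line a mean of 3, ESC in blue and EB in red. EB cultures of Otx2 and Lef1 lie above the ESC cultures in both panels, while those of Sox4 lie above on the deposited scale and below relative to all genes.

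Otx2 had levels of 9.04, 9.21 and 8.95 in ESC and 10.92, 10.91 and 10.92 in EB relative to all genes. The 3 EB cultures were nearly identical, and the rise was 1.85 ± 0.11 (limma adjusted p = 0.000744), called also with any 1 culture left out. Lef1 had 7.52, 6.37 and 7.32 in ESC and 8.34, 8.57 and 8.56 in EB. ESC replicate 2 was the lowest, the groups did not overlap, and the rise was 1.42 ± 0.29 (limma adjusted p = 0.0245). The call of Lef1 was lost without EB replicate 1, 2 or 3 in turn, with differences of 1.50, 1.38 and 1.39 and limma adjusted p = 0.0701, 0.0861 and 0.0819. Of all genes, 36.1% had no overlap between the states in this comparison.

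Fgf5 had levels of 7.77, 7.29 and 7.55 in ESC and 6.59, 6.75 and 6.78 in EB relative to all genes. All EB cultures lay below all ESC cultures, with a difference of -0.83 ± 0.15 (limma adjusted p = 0.0165). Pou3f1 had 8.12, 7.77 and 7.59 in ESC and 6.81, 7.26 and 6.45 in EB. The groups did not overlap, the EB cultures varied most, and the difference was -0.99 ± 0.23 (limma adjusted p = 0.0373). Sox4 had 9.31, 9.39 and 9.39 in ESC and 8.60, 8.95 and 8.64 in EB. The ESC cultures were nearly equal and all EB cultures were lower, with a difference of -0.63 ± 0.13 (limma adjusted p = 0.0247).

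These 3 lower calls changed with the scale and with single cultures left out. The same genes differed as deposited by 0.21, 0.09 and 0.64, and Sox4 was called higher there. The call of Fgf5 was lost without EB replicate 1, 2 or 3 (limma adjusted p = 0.0692, 0.0596 and 0.0511). Those of Pou3f1 and Sox4 were lost without any 1 culture but EB replicate 2, with limma adjusted p = 0.0544 to 0.109 for Pou3f1 and 0.0562 to 0.0912 for Sox4. On the hybridisation controls, a scaling chosen after seeing the data, the differences were -0.42, -0.55 and -0.14 and none was called. Pou3f1 also lost its call without the filter on low values (limma adjusted p = 0.0544), and Sox4 after median centring (-0.32, limma adjusted p = 0.0851). Cd24a, Sox3, Fgf15 and Foxd3 differed by 0.22, 0.11, -0.08 and -0.21 relative to all genes, with overlapping groups, and were not called.

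The 4 pools were compared one by one, to ask in which part of the gradient the states differed. Pool 3 held the most calls among the 9 genes: Otx2, Lef1, Cd24a, Fgf5 and Pou3f1 were called higher in EB relative to all genes and none lower, where 11.7% of all genes were called higher and 11.3% lower. The median of the 9 genes was 0.79 in pool 3 and that of all genes -0.01. Sox3, Foxd3, Fgf15 and Sox4 were not called in pool 3, with differences of 0.17, 0.20, 0.11 and -0.07.

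Otx2 in pool 3 had levels of 9.64, 9.21 and 9.16 in ESC and 12.03, 11.39 and 11.56 in EB. The lowest EB culture lay far above the highest ESC culture, and the rise was 2.32 ± 0.19 (limma adjusted p = 0.000106). Lef1 had 6.47, 6.94 and 6.39 in ESC and 8.62, 8.67 and 8.70 in EB. EB cultures agreed closely and lay above every ESC culture, with a rise of 2.06 ± 0.16 (limma adjusted p = 7.92e-05). Cd24a had 8.81, 8.97 and 9.02 in ESC and 9.77, 9.94 and 9.94 in EB. Here too the groups did not overlap, and the rise was 0.95 ± 0.12 (limma adjusted p = 0.000843).

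Fgf5 in pool 3 had levels of 6.66, 6.76 and 7.20 in ESC and 7.67, 7.84 and 7.90 in EB. The EB cultures were all higher, the opposite order to total RNA relative to all genes, and the rise was 0.93 ± 0.16 (limma adjusted p = 0.00339). Pou3f1 had 7.84, 7.90 and 8.06 in ESC and 8.77, 8.66 and 8.75 in EB. Both groups were tight and did not overlap, and the rise was 0.79 ± 0.12 (limma adjusted p = 0.00181). The 5 calls of pool 3 held with any 1 culture left out. On the hybridisation controls those of Otx2 and Lef1 held, and those of Fgf5, Pou3f1 and Cd24a were lost, with larger differences of 1.35, 1.20 and 1.32 (limma adjusted p = 0.0541, 0.116 and 0.0709). Of all genes, 39.3% had no overlap between the states in pool 3.

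**Figure D2:**
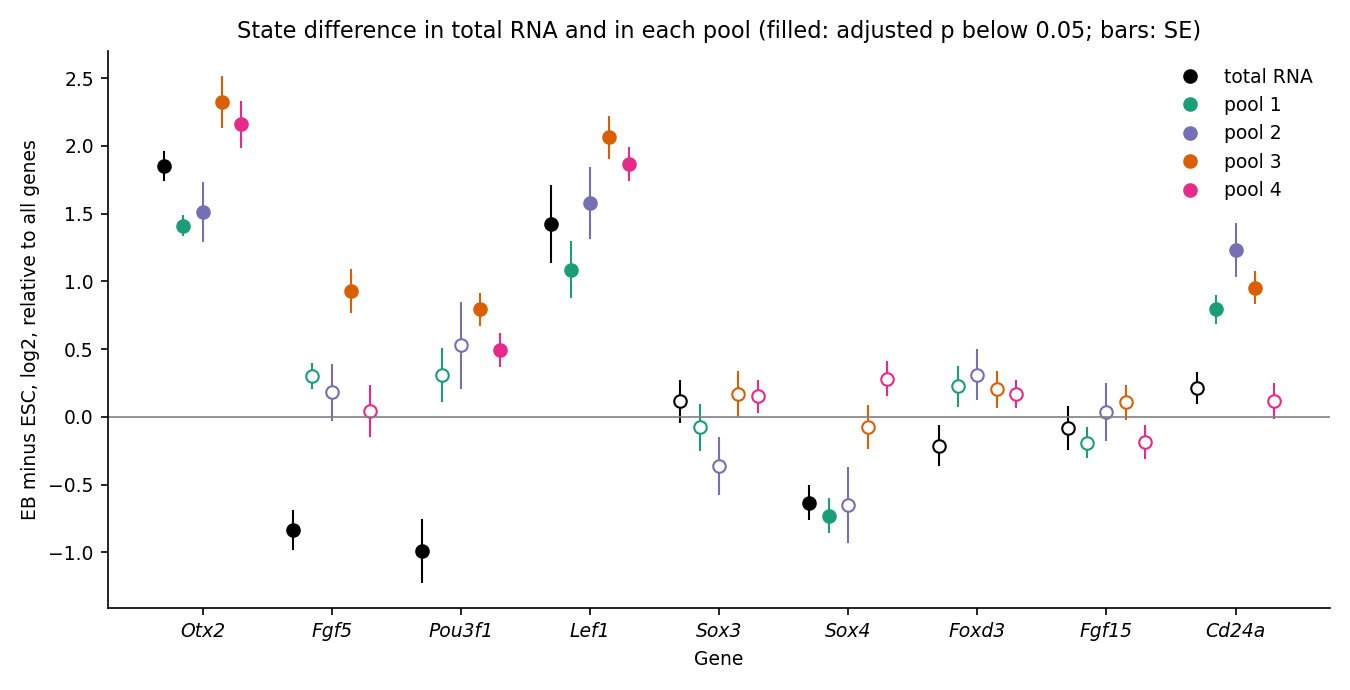
EB minus ESC of each gene relative to all genes (log2), in total RNA and in pools 1 to 4, with bars for the SE and filled points for an adjusted p below 0.05. Otx2 and Lef1 lie above 0 in all 5 fractions, while Fgf5 and Pou3f1 lie below 0 in total RNA and above it in pool 3. Each gene is shown by its representative probe set, and the other probe sets of Fgf5 and Pou3f1 did not change direction.

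The change of direction of Fgf5 and Pou3f1 between total RNA and pool 3 was tested as a difference of differences, a comparison added after these values were seen. The change was seen relative to all genes, and in 1 of 2 probe sets of each gene. As deposited, total RNA differed by 0.21 and 0.09. The other probe sets stood at 0.11 in total RNA and 0.72 in pool 3 for Fgf5, and at -0.92 and -0.22 for Pou3f1. The values that follow are those of the representative probe sets. For Fgf5, pool 3 minus total RNA was -1.13, -0.54 and -0.38 in ESC and 1.07, 1.07 and 1.10 in EB. The 3 EB values were nearly equal and lay far above those of ESC, with a difference of 1.76 ± 0.22. For Pou3f1 it was -0.35, 0.08 and 0.41 in ESC and 1.91, 1.34 and 2.25 in EB. The groups lay apart here as well, with a difference of 1.79 ± 0.28. Neither passed the threshold (limma adjusted p = 0.0669 for both), and limma called 0 of 13250 genes in this comparison, which is 0% in each direction. At an unadjusted p under 0.05 it counted 1165 genes higher and 1299 lower, and 25.3% of all genes had no overlap. With the larger of the other offsets tried, Fgf5, Pou3f1 and Cd24a were called (limma adjusted p = 0.000986, 0.00103 and 0.00579), at smaller differences of 1.08, 1.22 and 0.63. With arrays scaled before the offset, also chosen after seeing the data, Fgf5 and Pou3f1 were called (limma adjusted p = 0.0432 and 0.0473). The pools' arrays and those of total RNA differ in their floor, and its part was not tested.

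In pool 4, Lef1 and Otx2 rose by 1.86 ± 0.12 and 2.16 ± 0.18 relative to all genes (limma adjusted p = 5.75e-05 and 0.000132), where 15.4% of all genes were called higher and 14.6% lower. Pou3f1 was the other member called there. It had levels of 7.45, 7.65 and 7.40 in ESC and 7.78, 8.17 and 8.03 in EB, close but without overlap, and a rise of 0.49 ± 0.13 (limma adjusted p = 0.0179). That call was lost without EB replicate 2 or 3 (0.40 and 0.48, limma adjusted p = 0.0596 and 0.0616), without the filter and on the hybridisation controls (0.49 and 0.82, limma adjusted p = 0.054 and 0.37). Cd24a, called in each of the other pools, differed by 0.12 ± 0.13 in pool 4 and its groups overlapped (limma adjusted p = 0.567). Fgf5 differed by 0.04 in pool 4, with overlap.

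In pool 2, Otx2, Lef1 and Cd24a rose by 1.51 ± 0.22, 1.58 ± 0.26 and 1.23 ± 0.20 relative to all genes (limma adjusted p = 0.00704, 0.0111 and 0.0106), against 3.35% of all genes called higher and 3.78% lower. Cd24a had levels of 9.47, 9.33 and 9.64 in ESC and 10.49, 10.87 and 10.77 in EB, with every EB culture above every ESC culture. Its call was lost without ESC replicate 1 or 2 (1.23 and 1.16, limma adjusted p = 0.0591 and 0.0619), and that of Lef1 with every probe set as a row (1.56, limma adjusted p = 0.059). Without EB replicate 3, the array that stood apart, Pou3f1 was called in pool 2 as well (0.92, limma adjusted p = 0.0266), where all 3 cultures gave 0.53 and no call. On the hybridisation controls none of the 3 calls of pool 2 held, at differences of 1.15, 1.42 and 0.88.

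In pool 1, Otx2, Lef1 and Cd24a were called higher and Sox4 lower relative to all genes, against 6.25% of all genes called higher and 6.53% lower. Otx2 had levels of 8.25, 8.30 and 8.27 in ESC and 9.70, 9.59 and 9.76 in EB, 2 tight and separate groups, and rose by 1.41 ± 0.08 (limma adjusted p = 0.00194). Cd24a rose by 0.79 ± 0.11 (limma adjusted p = 0.0098) and Lef1 by 1.09 ± 0.21 (limma adjusted p = 0.0257). The call of Lef1 was lost without any 1 culture but EB replicate 3, at differences of 0.93 to 1.13. Sox4 had 9.03, 8.84 and 8.71 in ESC and 8.11, 8.31 and 7.96 in EB. All EB cultures were lower, with a difference of -0.73 ± 0.13 (limma adjusted p = 0.02), a call lost without ESC replicate 1 or 2 or EB replicate 1 or 3 (-0.64 to -0.74). As deposited and on the hybridisation controls no member was called in pool 1 (Otx2 at 1.35 and 1.38). On the deposited scale, where cultures with the same replicate number deviated together in pool 1, a fit with the number as a block called none either (Otx2 at 1.35 and Lef1 at 1.17, limma adjusted p = 0.216 and 0.219). Cd24a was not called after median centring or with arrays scaled before the offset (0.59 and 0.43, limma adjusted p = 0.195 and 0.0521). Of all genes, 30.4% had no overlap in pool 1, 31.1% in pool 2 and 43.4% in pool 4.

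The pool ratio of a culture, the mean of pools 3 and 4 minus the mean of pools 1 and 2, was compared to ask whether an mRNA lay in other pools in EB than in ESC. Otx2 and Sox4 moved toward pools 3 and 4 relative to all genes, the 2 members called of 9, where 4.18% of all genes were called higher and 5.16% lower. The median of the 9 genes was 0.21, and that of all genes 0.01. On the deposited scale all 9 were called higher, with differences from 0.72 for Cd24a to 1.97 for Sox4 and no overlap, as for 65.9% of all genes. There 64.5% of all genes were called higher and 0.0755% lower, the median gene rose by 0.73, and limma gave every gene the same SE of 0.24, so the spread of a single gene does not enter those p-values.

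Otx2 had ratios of -0.18, -0.41 and -0.13 in ESC and 0.93, 0.46 and 0.72 in EB relative to all genes. Every ESC culture had more signal in pools 1 and 2 and every EB culture more in pools 3 and 4. The rise was 0.94 ± 0.17 (limma adjusted p = 0.00855), called also with any 1 culture left out, but not on the hybridisation controls (1.30, limma adjusted p = 0.0901). Sox4 had -0.41, -0.14 and 0.10 in ESC and 0.79, 0.35 and 0.77 in EB. The groups did not overlap, although 1 ESC culture lay above 0, and the rise was 0.79 ± 0.18 (limma adjusted p = 0.0226). That call was lost without ESC replicate 1 or 2 or EB replicate 1 or 3 (0.66, 0.79, 0.71 and 0.72, limma adjusted p = 0.0947, 0.0779, 0.088 and 0.0513). It was lost as well with an offset of 16, without the filter and on the hybridisation controls (limma adjusted p = 0.0521, 0.0531 and 0.0901).

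**Figure D3:**
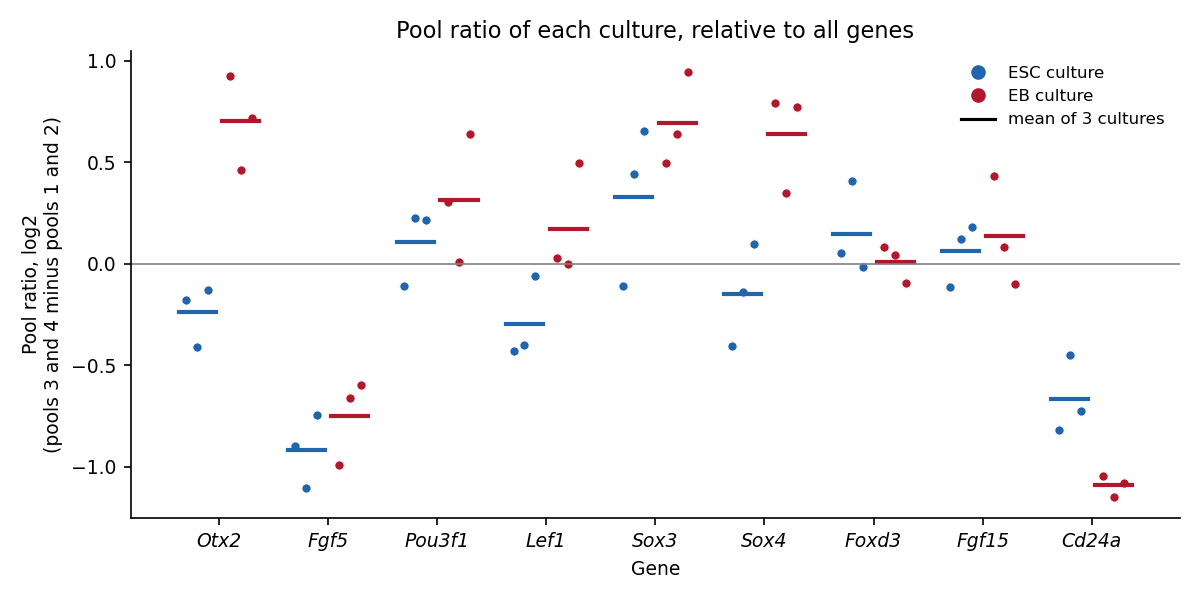
Pool ratio of each culture relative to all genes (log2, pools 3 and 4 minus pools 1 and 2). Points are single cultures and lines are means of 3, ESC in blue and EB in red, and the line at 0 marks equal levels in both pairs of pools. The EB points of Otx2 and Sox4 lie above all their ESC points, and both states of Fgf5 and Cd24a lie below 0.

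Lef1 and Cd24a had no overlap between the states, as had 31.0% of all genes, but were not called. Lef1 had a difference of 0.47 ± 0.18 (limma adjusted p = 0.125) and Cd24a one of -0.43 ± 0.16 (limma adjusted p = 0.108). After median centring Lef1 was called (0.80, limma adjusted p = 0.00786), and with the larger offset Cd24a was called lower (-0.40, limma adjusted p = 0.0146). Sox3, Pou3f1, Fgf5, Fgf15 and Foxd3 had differences of 0.36, 0.21, 0.17, 0.08 and -0.14, with overlapping groups. Otx2 and Lef1, alike in total RNA, thus differed in whether their ratio passed the threshold, and the difference between these genes was not tested.

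Within each state the ratio showed where an mRNA lay relative to the other mRNAs. In ESC, Fgf5 and Cd24a lay toward pools 1 and 2, at -0.92 ± 0.11 and -0.66 ± 0.11 (limma adjusted p = 0.000606 and 0.0024). No member was called the other way by its representative probe set. Other probe sets of Fgf5, Cd24a and Pou3f1 gave different ratios, as given below. Of all genes 17.3% were called higher and 16.9% lower in ESC. In EB, Fgf5 and Cd24a were again called lower, at -0.75 ± 0.13 and -1.09 ± 0.12 (limma adjusted p = 0.00103 and 5.21e-05). Otx2, Sox3 and Sox4 were called higher there, at 0.70 ± 0.13, 0.69 ± 0.13 and 0.64 ± 0.14 (limma adjusted p = 0.00172, 0.00183 and 0.00333), where 21.2% of all genes were called higher and 17.1% lower. On the deposited scale the EB ratio of Fgf5 was 0.09 and that of Cd24a -0.10, neither called. Sox3 in ESC was called without replicate 1 (0.55, limma adjusted p = 0.0215) and stood at 0.33 with all 3 cultures. Its floor values all lay in pool 1, so that its ratios are lower bounds in those cultures.

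As shares of the signal summed over the 4 pool arrays of a culture, on the deposited scale, Otx2 had 26.0% ± 3.43 (SD, n = 3) in pool 3 in ESC and 46.6% ± 7.05 in EB. The EB cultures had 54.8%, 42.2% and 42.9% and the ESC cultures 28.7%, 22.1% and 27.2%, so the groups lay apart. For the median gene the share of pool 3 was 25.3% in ESC and 35.3% in EB. Sox3 in EB had 41.0% ± 5.57 in pool 3 and 39.3% ± 3.56 in pool 4, and 5.87% ± 2.42 in pool 1. Cd24a had its largest mean share in pool 2 in both states, although pool 3 was ahead in EB replicate 1 (39.7% against 39.4%). The shares of pool 2 were 44.2% ± 7.32 in ESC and 41.9% ± 2.47 in EB, while those of the median gene were 37.1% and 27.8%. Fgf5 had 51.1% ± 9.88 in pool 2 and 14.4% ± 2.69 in pool 3 in ESC, and 33.8% ± 4.11 and 39.1% ± 3.49 in EB. Every array was made from 2.5 ug of RNA, so the shares are of array signal and not of the mRNA in the gradient.

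**Figure D4:**
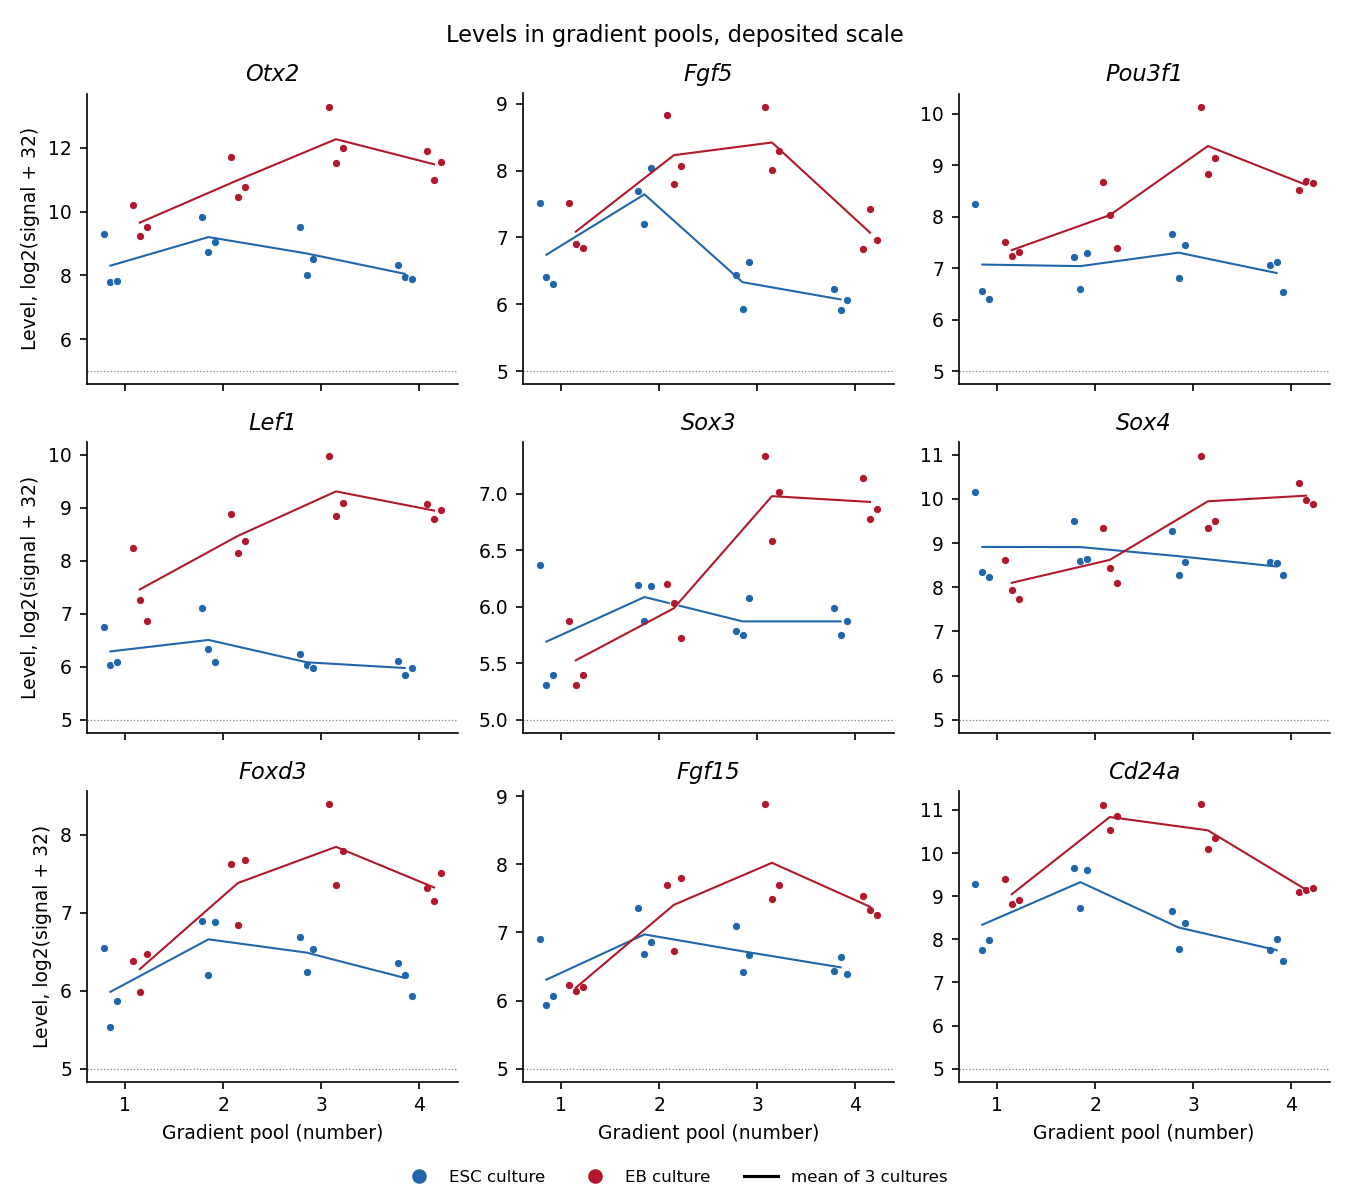
Levels of the 9 genes in pools 1 to 4 on the deposited scale, as log2(signal + 32), 1 panel per gene with its own vertical axis. Points are single cultures, lines join means of 3, ESC in blue and EB in red, and the dotted line at 5 marks a signal of 0. The highest mean lies in EB pool 3 for 7 of the 9 genes, in pool 4 for Sox4 and in pool 2 for Cd24a.

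Over the 10 groups on the deposited scale, the highest mean level was in EB pool 3 for 7 of the 9 genes. Sox4 was highest in EB pool 4 (10.07 ± 0.25, SD, n = 3) and Cd24a in EB pool 2 (10.84 ± 0.30). The lowest mean was in ESC pool 4 for Otx2, Fgf5, Pou3f1, Lef1 and Cd24a, in EB pool 1 for Sox3, Sox4 and Fgf15, and in ESC pool 1 for Foxd3. For Otx2 the 5 EB groups had means of 9.65 to 12.27 and the 5 ESC groups means of 8.05 to 9.20. Groups next to each other in this order mostly overlapped, in 9 of 9 neighbouring pairs for Fgf5, Lef1, Sox4 and Fgf15 and in 8 of 9 for Otx2, Pou3f1, Sox3 and Foxd3. Otx2 had its break between EB pool 2 (10.98 ± 0.65) and EB pool 1 (9.65 ± 0.50). Cd24a was the most stepped, with 6 of 9 pairs overlapping. In pool 1 of ESC, replicate 1 was the highest culture for all 9 genes, as in the mean signal of that array.

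Genes with several probe sets were compared over all 34945 probe sets with 1 symbol. The share of all probe sets called in this fit is not given here, and the shares of all genes quoted elsewhere belong to other fits. Counts of calls in this paragraph therefore compare the probe sets of a gene with each other, not with those of other genes. The 3 probe sets of Cd24a were all called higher in EB in pool 3 relative to all genes, at 0.93 to 1.52. In pools 1 and 2 all 3 were higher, at 0.67 to 0.95 and 0.88 to 1.83, but only 1 of 3 was called in each. Their pool ratios were all negative, at -0.67 to -0.32 within ESC with 2 called lower, and at -1.11 to -0.67 within EB with 1 called lower. Both probe sets of Lef1 were called higher in pool 3, but 1421299_a_at rose by less, 0.85 against 2.02 for 1454734_at, and in total RNA it differed by 0.31 and was not called. For Fgf5 the probe sets disagreed in total RNA: 1438883_at stood at -0.84 and 1426186_a_at at 0.11, while in pool 3 both were higher, at 0.88 and 0.72, the second without a call (limma adjusted p = 0.0704). 1426186_a_at lay at the floor on 9 of 24 pool arrays. The pool ratios of the 2 Fgf5 probe sets were -0.89 and -0.28 within ESC and -0.75 and -0.0042 within EB. In each state 1 of 2 was called lower, so the place of Fgf5 toward pools 1 and 2 in EB rests on 1438883_at. For Pou3f1 they disagreed in pool 3, with 0.76 for 1460038_at and -0.22 for 1422068_at, while in total RNA both were negative, at -0.99 and -0.92, and neither was called in this wider fit. They disagreed as well in pool 2, at 0.50 and -0.45, and in pool 4, at 0.44 and -0.069, again without a call. Within ESC their pool ratios were 0.14 and 1.49 and within EB 0.31 and 1.32, with 1 of 2 called higher in each state. The larger ratios were those of 1422068_at, which lay at the floor on 4 of 24 pool arrays. The 6 probe sets of Sox4 that passed ranged from -0.91 to 0.09 in total RNA and from -0.91 to 0.34 in pool 3. Among them 1419155_a_at was called lower in both. Their pool ratios differed between the states by -0.0030 to 0.80, so the rise of Sox4 rests on a part of its probe sets, and none was called in this fit. Otx2 had 1 probe set and was called in total RNA and in every pool in this fit too, whereas neither probe set of Lef1 was called in pool 1, and in pool 2 1421299_a_at was (1.24, limma adjusted p = 0.0438) and 1454734_at was not.

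A wider list of genes linked to the primed epiblast held calls in both directions. Of a list of 48 such genes, 45 were matched to a probe set with 1 symbol and 41 were tested. In total RNA relative to all genes 7 were called higher and 7 lower, against 6.55% and 6.09% of all genes, with a median of -0.11 against -0.0042 for all genes. The largest rises were those of the Nodal antagonists Lefty2, 1.61 ± 0.11, and Lefty1, 0.89 ± 0.13, and of the DNA methyltransferase Dnmt3a, 0.97 ± 0.12. The largest falls were those of Spry4, a feedback inhibitor of FGF signalling (-2.10 ± 0.13), of Etv4, an ETS factor that FGF signalling induces (-1.60 ± 0.11), and of the keratin Krt8 (-1.52 ± 0.10). Of the 41, 32 were called higher and 2 lower on the deposited scale, where 78.9% of all genes were called higher.

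In the pool ratio relative to all genes 6 of these 41 were called higher and 4 lower, against 4.18% and 5.16% of all genes. The highest were the ERK phosphatase Dusp6 at 0.99 ± 0.17, the pluripotency factor Sox2 at 0.84 ± 0.18 and the ETS factor Etv5 at 0.75 ± 0.16. The lowest were Krt18, the partner keratin of Krt8, at -1.01 ± 0.18, the TEAD factor Tead2 at -0.80 ± 0.16 and Lefty1 at -0.74 ± 0.20. In pool 3, where 5 of the 9 members were called higher and none lower, 8 of the 41 were called higher and 7 lower, against 11.7% and 11.3% of all genes. In pool 4 the 41 held 13 higher and 7 lower, against 15.4% and 14.6%.

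Markers of the states and lineages that embryoid bodies can hold were measured beside the 9 genes, and their part in the results was not tested. Of 15 markers of naive stem cells, 5 were called higher and 5 lower in EB total RNA relative to all genes. In that comparison, used for every list here, 6.55% of all genes were called higher and 6.09% lower. Klf4 and Klf5, factors of the naive network, fell most, at -1.69 and -1.20, and Dppa3 and Prdm14, also expressed in germ cells, rose by 1.21 and 1.15. The summed signal of the list was 12735 to 13395 in ESC and 25450 to 30489 in EB total RNA, but as a share of all signal on the array it was 0.177% to 0.192% and 0.175% to 0.183%. Of 11 tested primitive endoderm markers, 4 were called higher and none lower. The signal of all 12 was 165 to 199 in ESC and 815 to 1082 in EB, a share of 0.00228% to 0.00285% and of 0.00587% to 0.00623%, higher in EB on both measures. Of 7 tested neural markers none was called higher and 2 lower. The 10 matched to a probe set summed to 269 to 344 and 490 to 709, or 0.0037% to 0.00494% and 0.00353% to 0.00408% of the array. Of 7 mesoderm markers none was higher and 1 lower, with sums of 99.1 to 158 and 166 to 315, or 0.00137% to 0.00218% and 0.00119% to 0.00182%. Of 3 tested fibroblast markers none was called, and all 8 summed to 139 to 195 and 254 to 308, or 0.00193% to 0.0028% and 0.00155% to 0.00187%. The summed signal of the neural and fibroblast lists was thus higher in EB as deposited, while their shares overlapped (neural) or were lower (fibroblast). The 9 genes summed to 1384 to 1511 in ESC and 5291 to 5701 in EB total RNA, or 0.0192% to 0.0217% and 0.0325% to 0.0381% of the array. Such a sum follows its brightest genes, and Otx2 had the highest level of the 9 in EB (mean of 11.48, against 8.43 in ESC). The rise of the sum is thus not one of the 9 genes as a set. Relative to all genes their median difference was -0.08, with 2 called higher and 3 lower.

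The nearest patterns over the 30 arrays were found by Pearson correlation on values quantile normalized over all arrays. The arrays of a culture share their cells, so these values are descriptions. Otx2 lay nearest to Ube2h (r = 0.97), Ndrg1 (0.95) and Rnf128 (0.95). Lef1 lay nearest to Grsf1, Dazl and Ccn2 (0.93, 0.92 and 0.92), and its r with Otx2 was 0.91. Cd24a lay nearest to Ifitm1, Rangrf and Smagp (0.95, 0.95 and 0.95), and Fgf5 to Hspb11, Yaf2 and Cstb (0.87, 0.87 and 0.85). Sox4 was nearest to Zswim6, Tsc22d2 and Cpne1 (0.89, 0.88 and 0.87), and Sox3 to Prpf40b, Psmd14 and Arap1 (0.85, 0.81 and 0.81). The nearest genes of Pou3f1 were Hmgn5, Gsto1 and Emb (0.77, 0.75 and 0.73). Fgf15 with Spin2c, Capzb and Lacc1 (0.71, 0.65 and 0.60) and Foxd3 with Ccdc92b, Rac2 and Zbp1 (0.68, 0.67 and 0.67) had no close match. Among the members Fgf5 and Cd24a had r = 0.77, and Sox3 and Cd24a r = -0.60.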

How the data were processed

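The authors deposited log2 signals of 45101 probe sets on 30 Affymetrix mouse arrays; MAS5 and affy are the tools in the submitters' processing notes, which give no version or role. The deposited values appear scaled to spike-in RNA rather than array by array: the mean of 24 spike-in probe sets stayed within 9.43 and 9.78 (log2), whereas 18 hybridisation controls spread from 9.60 to 13.9. On pool arrays 18.2% to 59.0% of probe sets sat at a floor. GEO's platform annotation gave 1 symbol to 34945 probe sets, several to 932 and none to 9160, beside 64 controls.

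From the linear signal, log2(signal + 32) was formed. Probe sets in the lowest 40% by mean were left out, and each gene kept its brightest remaining probe set (mean of 30 arrays), giving 13250 genes. limma 3.58.1 (R 4.3.3; lmFit, eBayes) tested differences two-sided between 3 cultures per state, both as deposited and with the arrays of a comparison quantile normalized; Benjamini-Hochberg adjustment ran over all 13250 genes. The script was tested on simulated data. An exact permutation test of 3 against 3 cultures cannot go below p = 0.1 and was not used. The number of arrays limits the precision.

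All 9 members were named, with 3 nearest genes each, and of the wider primed list the 3 largest called differences in each direction for total RNA and the pool ratio. The Klf4, Klf5, Dppa3 and Prdm14 values among the markers were picked after their values were seen. Members and lists were chosen with earlier results of these data known. Alternatives were other offsets, no filter, every probe set, median centring, the deposited scale, a replicate block, a trended robust prior, each culture left out, and, added later, 2 scalings and a replicate block on the deposited values of pools 1 and 2.

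Cultures with the same replicate number deviated together on the deposited scale in pool 1 (correlations across genes of 0.54, 0.32 and 0.34) and in pool 2 (0.34, 0.14 and 0.15), where the floor is shared by replicate number. Elsewhere, and relative to all genes, at least 1 pair was under 0.1. In deposited pool 3 the correlations were 0.45, 0.36 and 0.096, so part of its cultures deviated together too, and no block was fitted there on that scale.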

Additional observations from a re-analysis of the deposited data

Results flagged for a closer look

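The pool ratio of 9 genes differed between EB and ESC on the deposited scale by the test of the difference itself (limma with Benjamini-Hochberg adjustment, n = 3 cultures per state). The differences were 1.97 for Sox4, 1.94 for Otx2, 1.53 for Lef1, 1.26 for Pou3f1, 1.21 for Sox3, 1.08 for Fgf5, 0.94 for Fgf15, 0.75 for Foxd3 and 0.72 for Cd24a, and each was positive in 3 of 3 EB cultures set against the ESC cultures, without overlap. Of all genes, 64.5% were called higher on this scale and 65.9% had no overlap. The median gene rose by 0.73, which Foxd3 and Cd24a only matched. Every gene had the same SE of 0.24, so the spread of a single gene does not enter these calls.

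Relative to all genes the ratio differed between the states for Otx2 (0.94, limma adjusted p = 0.00855) and Sox4 (0.79, limma adjusted p = 0.0226). Both genes lay higher in all 3 EB cultures than in any ESC culture, and 31.0% of all genes had no overlap between the states.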

How the results depend on the processing

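Of 1494 values of single members under alternatives, 1284 kept their direction and their side of the threshold, 109 lost a call, 38 gained one and 63 turned direction. The number of arrays limits the calls, and the causes of the changes below were not tested. The counts below mostly stand without the share of all genes called in the same fit. They show how calls moved with the processing, not how the members differ from other genes. As deposited, 78.9% of all genes were called higher in total RNA and 64.5% in the pool ratio between the states.

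Relative to all genes, total RNA had 2 members called higher and 3 lower. The counts were 7 and 0 as deposited, 1 and 0 with the replicate block, 1 lower with every probe set as a row, 0 lower on the hybridisation controls, and 1 to 2 higher and 0 to 2 lower with a culture left out. On the deposited scale, 7 were called higher and 0 lower in total RNA. Median centring gave 3 and 2, scaling before the offset 2 and 3, and the hybridisation controls 2 higher, while leaving out a culture gave 7 to 7.

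The pool ratio had 2 members called higher relative to all genes. It had 1 with an offset of 16, without the filter and with every probe set, 9 as deposited, 0 on the hybridisation controls, 1 lower with the larger offset, and 1 to 2 higher with a culture left out. On the deposited scale it had 9, with 3 after median centring, 2 under scaling before the offset, 0 on the hybridisation controls and 8 to 9 with a culture left out. Within EB, 3 were higher and 2 lower, with 5 higher after median centring and 7 higher and 0 lower as deposited. Within ESC, leaving out a culture gave 0 to 1 higher.

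Pool 1 had 3 higher and 1 lower. It had 0 lower without the filter, with every probe set and after median centring, 0 in either direction as deposited, as deposited with the replicate block, and on the hybridisation controls, and 0 to 1 lower with a culture left out. Pool 2 had 3 higher, and 0 on the hybridisation controls. Pool 3 had 5 higher, with 9 as deposited and 2 on the hybridisation controls. Pool 4 had 3 higher, with 5 after median centring and 9 as deposited. The share of all genes called in pools 3 and 4 under these alternatives is not given here, so the counts of 9 are no result about the members. Pool 3 minus total RNA had 0, with 3 at the larger offset, 1 as deposited and 2 under scaling before the offset.

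Of the 63 turns, 25 had a call in one of the fits compared, all of them between scalings. In deposited total RNA, median centring gave Fgf5 -0.75, Pou3f1 -0.87, Sox3 -0.14, Sox4 -0.32, Foxd3 -0.15 and Fgf15 -0.036. Scaling before the offset gave Fgf5 -0.84, Pou3f1 -0.99, Sox4 -0.65, Foxd3 -0.20 and Fgf15 -0.079, and the hybridisation controls gave Sox4 -0.14. Values relative to all genes turned when taken as deposited for Fgf5 0.21, Pou3f1 0.091, Sox4 0.64, Foxd3 0.81 and Fgf15 0.93 in total RNA, Foxd3 0.75 and Cd24a 0.72 in the ratio, Fgf5 0.087 in the EB ratio, Sox4 1.24 in pool 3 and Fgf15 0.89 in pool 4. The deposited ratio turned for Cd24a under median centring (-0.011), and under scaling before the offset for Cd24a (-0.30) and Foxd3 (-0.10).

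The other 38 turns had no call in either fit. Of these, 19 came with a culture left out, where the ranges were -0.098 to 0.31 for Pou3f1 in deposited total RNA, and, relative to all genes, -0.23 to 0.042 for Fgf15 and -0.015 to 0.25 for Sox3 in total RNA, -0.072 to 0.20 for Fgf15 in the ratio, -0.010 to 0.26 for Fgf15 and -0.027 to 0.063 for Foxd3 in the EB ratio, -0.17 to 0.097 for Sox3 in pool 1, -0.11 to 0.14 for Fgf15 in pool 2, -0.24 to 0.026 for Sox4 in pool 3, -0.16 to 0.19 for Fgf5 and -0.0064 to 0.21 for Cd24a in pool 4, and -0.19 to 0.21 for Sox3 and -0.025 to 0.38 for Fgf15 in pool 3 minus total RNA. The hybridisation controls gave Fgf5 -0.42 and Pou3f1 -0.55 in deposited total RNA, and, set against values relative to all genes, Foxd3 0.20 and Fgf15 0.32 in total RNA, Foxd3 0.24 and Cd24a 0.088 in the ratio, Fgf15 -0.090 in pool 2, Sox4 0.30 in pool 3 and Fgf15 0.13 in pool 4. Median centring gave Sox3 -0.14 in total RNA, Foxd3 0.023 in the ratio, Fgf15 -0.031 in pool 2 and Sox4 0.15 in pool 3. Scaling before the offset gave Fgf15 -0.082 in pool 2, and Fgf5 -0.013 and Cd24a -0.019 in pool 4. As deposited, the ESC ratio was -0.018 for Sox3 and -0.034 for Fgf15, and with every probe set Fgf5 was -0.021 in pool 4.

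Replicate numbers did not pair the cultures in total RNA or in the ratio, where the block changed the counts of total RNA given above. In pool 1 the block ended the call of Lef1 (1.09, limma adjusted p = 0.0652), and no other count of members called moved by over 1.5 times with it. On the deposited scale of pool 2, where the numbers pair the cultures, the block kept Otx2, Lef1 and Cd24a and added Foxd3 (0.72, limma adjusted p = 0.0475), while the calls over all genes went from 276 higher and 43 lower to 2032 and 181.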
